A study of Homo sapiens with 2 samples.

Results

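The annexin and ESCRT membrane repair genes are 34 of the 37122 genes in the count table. They were chosen by name from what their products do and not by a rule on their values, although earlier results of these data were known. They comprise 7 annexins and 27 genes of the ESCRT machinery: 3 of ESCRT-0, 5 of ESCRT-I, 3 of ESCRT-II, 12 of ESCRT-III, the 2 VPS4 ATPases, and ALIX with its partner ALG-2. RNA-seq was performed on Ramos, a cell line from a Burkitt's lymphoma of B-cell origin, and on Ramos640, a line derived from Ramos by selection under rising rituximab, an antibody against CD20, with normal human serum as the source of complement. Ramos640 was kept resistant to complement-dependent cytotoxicity (CDC) by treatment with rituximab and 20% serum every 21 days, whereas no treatment is given for Ramos. Each line gave 1 library, its RNA taken from 3 passages and mixed, so that no difference below has a replicate check and no p-value is given. The libraries held 38030090 reads in Ramos against 30871826 in Ramos640.

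Complement kills a cell by building the membrane attack complex, a pore through the plasma membrane that lets calcium in. Annexins are proteins that bind phospholipids when calcium rises, and they gather at wounds, where they cross-link, fold and plug the torn membrane. ESCRT complexes act in order: ESCRT-0 gathers ubiquitinated cargo, ESCRT-I and ESCRT-II bend the membrane, ESCRT-III polymerises into filaments that close the neck of a bud, and VPS4 takes the filaments apart. At the plasma membrane ALG-2 senses calcium and recruits ALIX and ESCRT-III, which pinch off damaged patches as vesicles. The comparison asks whether the transcripts of this machinery differ between the line sensitive to CDC and the line selected for resistance to it.

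Before the values, 3 pairs of sequences are shown, of which the third is a description that no result below rests on. The first pair is the longest coding exon of ANXA2, exon 12 of its canonical transcript at chr15:60641274-60641396 on the minus strand, and the matching stretch of the processed pseudogene ANXA2P2 at chr9:33625109-33625231 on the plus strand (GRCh37), shown because reads from the gene and its copy are hard to tell apart. Over these 123 bases the copy has 1 substitution, T117C, counted from 1 at the 5′ end of the exon, and the capital marks it.
ANXA2: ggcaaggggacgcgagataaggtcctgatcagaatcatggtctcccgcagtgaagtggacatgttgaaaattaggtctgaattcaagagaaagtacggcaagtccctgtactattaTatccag
ANXA2P2: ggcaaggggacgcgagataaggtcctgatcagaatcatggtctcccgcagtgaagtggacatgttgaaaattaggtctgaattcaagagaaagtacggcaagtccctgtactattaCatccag

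The second pair is the longest coding exon of CHMP2A, exon 3 at chr19:59063626-59063805 on the minus strand, and of its paralog CHMP2B, exon 3 at chr3:87294864-87295058 on the plus strand (GRCh37, canonical transcripts). It is shown because the values below varied with the share of G and C bases of the transcript. Capitals mark G and C, which make up 54.4% of the 180 bases of CHMP2A and 35.9% of the 195 bases of CHMP2B.
CHMP2A: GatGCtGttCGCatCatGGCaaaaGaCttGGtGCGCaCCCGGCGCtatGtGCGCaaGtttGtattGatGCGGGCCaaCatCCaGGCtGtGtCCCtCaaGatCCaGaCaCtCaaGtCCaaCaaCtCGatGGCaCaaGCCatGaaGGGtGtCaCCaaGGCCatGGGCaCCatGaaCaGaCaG
CHMP2B: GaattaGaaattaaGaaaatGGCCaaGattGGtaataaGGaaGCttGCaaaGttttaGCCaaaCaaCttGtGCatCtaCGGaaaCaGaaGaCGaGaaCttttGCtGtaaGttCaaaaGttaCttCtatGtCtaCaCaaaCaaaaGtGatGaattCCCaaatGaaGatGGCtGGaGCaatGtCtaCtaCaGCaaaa

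The third pair is the 250 bases before the start of ANXA1 and of ANXA5, the 2 annexins lower in Ramos640 past 1.5-fold. Both windows were taken from RefSeq (GRCh38.p14, chr9:73151615-73151864 on the plus strand and chr4:121696981-121697230 on the minus strand). Capitals mark matches, on either strand, to the letters of the TATA box, searched as TATAAA, to those of the CCAAT box, and to those of the GC box, searched as GGGCGG, and no motif contains another. The ANXA1 window held 1 TATAAA and 2 CCAAT matches, no CpG, and 38.4% G and C, while the ANXA5 window held 1 GGGCGG match, 31 CpG and 78.8% G and C.
ANXA1: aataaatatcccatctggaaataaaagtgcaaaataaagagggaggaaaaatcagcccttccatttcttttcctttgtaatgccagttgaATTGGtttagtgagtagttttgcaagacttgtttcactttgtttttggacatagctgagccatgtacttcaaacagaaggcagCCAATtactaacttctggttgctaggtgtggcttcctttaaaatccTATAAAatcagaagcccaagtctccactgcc
ANXA5: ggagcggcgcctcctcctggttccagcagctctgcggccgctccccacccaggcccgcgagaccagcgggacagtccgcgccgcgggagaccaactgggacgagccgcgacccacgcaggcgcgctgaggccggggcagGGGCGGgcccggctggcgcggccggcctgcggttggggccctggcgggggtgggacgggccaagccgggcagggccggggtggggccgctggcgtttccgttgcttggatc

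A window was found for 22 of the 34 genes. Of these, 13 held the GC box, 7 the CCAAT box and 2 the TATA box, beside 42.6%, 32.0% and 10.7% of all 35116 RefSeq windows of the same length. A match is a match of letters in this window, and no factor binding was measured.

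Both libraries carried the B-cell identity of their label: all 9 B-cell markers had reads. They summed to 194240 reads in Ramos and 190342 in Ramos640, or 5108 and 6166 CPM (counts scaled to the library total). The log2 fold change of the sum was 0.35 (interval 0.34 to 0.36). Singly, 3 of them were higher in Ramos640, CD79B (log2 fold change 0.64), CD74 (0.63) and CD79A (0.57). The other 6 were lower, and the median log2 fold change of the 9 was -0.39. MS4A1, which encodes CD20 itself, had 9654 reads in Ramos against 1904 in Ramos640. Fibroblast markers were also read in both libraries. Reads of the 6 fibroblast markers summed to 1302 in Ramos and 401 in Ramos640 (34.2 and 13.0 CPM, log2 fold change -1.32, interval -1.48 to -1.16). Most came from the collagens COL1A1 at 651 and 192 reads, COL1A2 at 466 and 162, and COL3A1 at 166 and 40. The others had few reads, DCN 13 and 1, PDGFRB 6 and 3, and LUM 0 and 3. The 6 T-cell markers summed to 31 and 90 reads, a sum higher in Ramos640 by 1.88 on the log2 scale (interval 1.32 to 2.56). Of these markers, CD3E had 1 and 31 reads (4.28, interval 2.75 to 10.7) and CD247 had 25 and 58 (1.55, interval 0.90 to 2.33). CD3G had 5 and 1 reads, too few to compare, and CD3D, CD2 and TRAT1 were at 0 in both. The 7 monocyte markers summed to 48 and 25 reads, and the 6 epithelial markers to 44 and 16. In such bulk RNA, fewer cells of a type and less RNA per cell cannot be told apart.

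Of the 34 genes, 32 had the 10 reads over both libraries that a comparison required. ANXA4 and CHMP4C had no read in either, where a count of 0 allows up to 0.0789 CPM in Ramos and 0.0972 in Ramos640. Most of the machinery lay within 1.5-fold between the lines. Past 1.5-fold, 2 genes were higher in Ramos640, ANXA6 and VPS37B, and 2 were lower, ANXA1 and ANXA5, beside 14.6% of all 18778 genes compared that were higher and 17.3% that were lower. All fold changes are of Ramos640 over Ramos, on the log2 scale of normalized reads plus 1, with 95% intervals that cover counting error only. For 28 of the 32 the log2 fold change was under 0.5 in size, and the median was 0.041 beside -0.015 over all genes compared, or -0.039 beside -0.095 when libraries were scaled by total counts. At 2-fold none (0) was higher and 2 were lower, beside 6.64% and 8.75% of all genes. Of the 30 with at least 100 reads, 1 was higher past 1.5-fold (ANXA6) and 1 lower (ANXA5), beside 9.94% and 12.6% of genes at that depth. By these intervals 11 genes lay above 0 and 9 below it, beside 29.6% and 31.6% of all genes, and 12 included 0. Intervals narrow as reads increase, and these shares cover all genes with at least 10 reads, so they are not matched in depth.

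**Figure D1:**
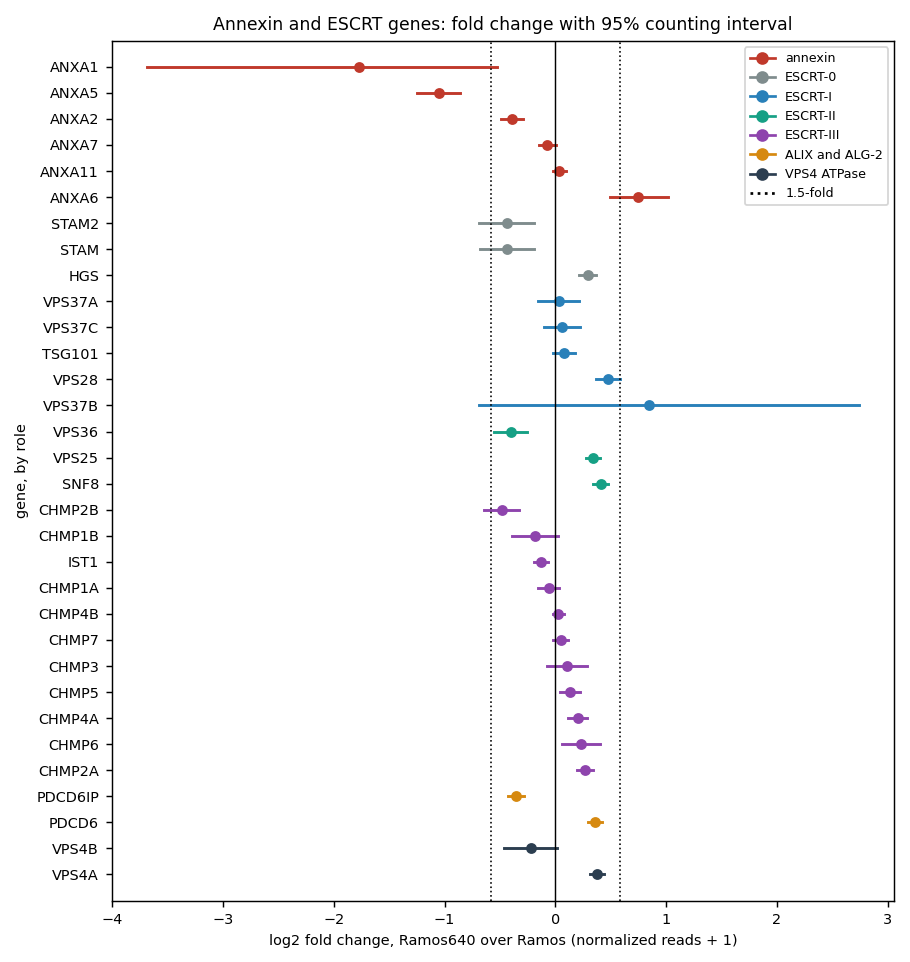
Log2 fold change of each annexin and ESCRT gene with at least 10 reads, Ramos640 over Ramos, on the horizontal axis, with genes in rows grouped by role; bars are 95% counting intervals and dotted lines mark 1.5-fold. Only ANXA6 and VPS37B lie right of the dotted lines and only ANXA1 and ANXA5 left of them, and the bar of VPS37B crosses 0.

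Of 6 annexins compared, 1 was higher past 1.5-fold and 2 were lower, beside 14.6% and 17.3% of all genes. Of those with at least 100 reads, 1 was higher and 1 lower, beside 9.94% and 12.6% of genes at that depth. ANXA5, which assembles into a lattice on phosphatidylserine and is the probe used to stain apoptotic cells, had 791 reads in Ramos against 293 in Ramos640, or 693 and 334 after normalization. It was lower in Ramos640 by 2.07-fold, a log2 fold change of -1.05 (interval -1.25 to -0.86). The gene lies on chromosome 4 of GRCh37 from 122589101 to 122618150 on the minus strand. Its 20 nearest protein-coding neighbours with 100 reads or more, 10 on each side, lay between 113558233 and 128820379. They had a median log2 fold change of -0.31, with 18 below 0. Of all genes compared, which needed only 10 reads and could be of any type, 51.2% were below 0. With the trend along GC content described further on removed, that median was -0.050.

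ANXA1, known as a mediator of the anti-inflammatory action of glucocorticoids and as a wound-binding protein, was nearly silent in these B cells. It had 25 reads in Ramos against 5 in Ramos640, or 21.9 and 5.71 after normalization, a log2 fold change of -1.77 (interval -3.68 to -0.53). It lies on chromosome 9 from 75766781 to 75785309 on the plus strand, where 18 of the 20 nearest genes were below 0 with a median of -0.41, or -0.17 with the GC trend removed. So few reads put the fold anywhere within a wide interval, although the interval does not reach 0.

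ANXA6, an annexin with a duplicated core that forms the repair cap at wounds, moved the other way. It had 216 reads in Ramos against 279 in Ramos640, or 189 and 318 after normalization, which is 1.68-fold higher (log2 fold change 0.75, interval 0.49 to 1.01). The gene lies on chromosome 5 from 150480267 to 150537376 on the minus strand, and its 20 nearest genes had a median of 0.035. Thus ANXA5 had 78.6% of the reads of ANXA5 and ANXA6 together in Ramos (interval 75.9 to 81.0) and 51.2% in Ramos640 (47.0 to 55.4), a pair chosen after the values were seen. Since they were paired for moving apart, the shares are a description.

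ANXA2, which works as a tetramer with S100A10 and links membranes to actin, had 2202 reads in Ramos against 1288 in Ramos640 (1930 and 1470 normalized; log2 fold change -0.39, interval -0.49 to -0.29), within 1.5-fold. Its reads are uncertain because of its processed pseudogenes, of which ANXA2P2 is 98.4% identical over all 1017 coding bases, while a single base parts them in the exon printed above. The ANXA2P2 row held 1999 and 1171 reads, which is 90.8% and 90.9% of the ANXA2 count, and how the counting treated reads that fit both places is not given in the sources used here. With the reads of all 3 pseudogenes added, the counts were 4328 and 2563 and the log2 fold change -0.37 (interval -0.45 to -0.30).

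ANXA11, which tethers RNA granules to lysosomes and binds ALG-2, was the annexin with the most reads in both libraries, 4852 and 3820 (log2 fold change 0.036, interval -0.025 to 0.098). ANXA7, which also works with ALG-2 at wounds, had 3204 and 2338 reads (2808 and 2668 normalized; -0.073, interval -0.15 to 0.0039). Both intervals include 0. The 6 annexins compared had a median of -0.23, with 4 below 0, beside 51.2% of all genes compared. The median was -0.073 for the annexins with at least 100 reads.

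Of the 6 fibroblast markers, the 4 that could be compared all had log2 fold changes below 0. Of the 6 annexins compared, 4 were below 0 and 2 above it. Whether fibroblast RNA had a part in the annexin values was not tested.

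**Figure D2:**
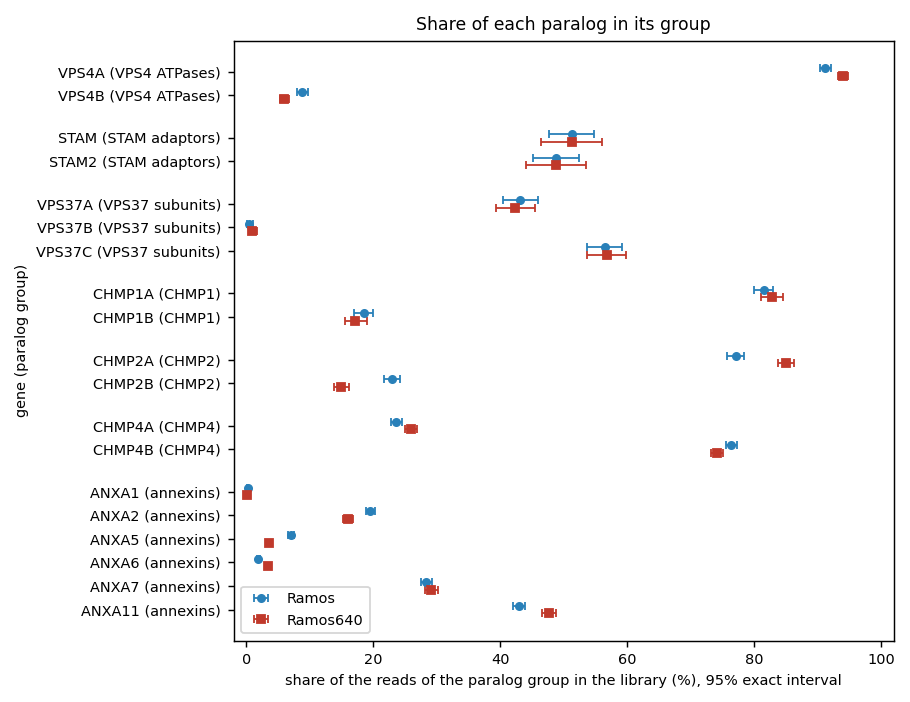
Share of reads, in percent, that each gene takes of its family within a library, for Ramos and Ramos640, with 95% binomial counting intervals as bars. CHMP2B goes from 22.9% to 15.0% and ANXA5 from 7.01% to 3.65%, while STAM stays at 51.2% in both.

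Of 26 ESCRT genes compared, 1 was past 1.5-fold, VPS37B on the higher side, beside 14.6% of all genes higher and 17.3% lower. No ESCRT gene with at least 100 reads was past 1.5-fold, beside 9.94% higher and 12.6% lower of genes at that depth. Their median log2 fold change was 0.070, which became -0.011 when libraries were scaled by total counts. By counting intervals 10 lay above 0 and 6 below it, beside 29.6% and 31.6% of all genes, shares not matched in read depth. Subunits of 1 complex often differed in sign, as the complexes taken in turn show.

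In ESCRT-0, the entry complex, the subunits parted. HGS, which binds ubiquitinated cargo and endosomal lipid, had 2796 reads in Ramos against 2625 in Ramos640 (log2 fold change 0.29, interval 0.21 to 0.37), and ARL16, which overlaps it on the other strand, held 33.2% and 27.4% as many. Its partners STAM and STAM2, adaptors that also bind ubiquitin, had 398 and 226 reads (349 and 258 normalized; -0.43, interval -0.68 to -0.20) and 379 and 215 reads (332 and 245 normalized; -0.44, interval -0.69 to -0.19). STAM took 51.2% of the STAM and STAM2 reads in both libraries, so the paralogs kept their proportion.

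In ESCRT-I, which links cargo to the later complexes, 1 of 5 intervals lay above 0, that of VPS28, and the other 4 included 0. VPS28, the subunit that contacts ESCRT-II, had 1316 reads in Ramos against 1407 in Ramos640 (1153 and 1606 normalized; log2 fold change 0.48, interval 0.37 to 0.59), the nearest to 1.5-fold among those within it on the higher side. TSG101, the subunit that viruses recruit in order to bud, had 1902 and 1540 reads (0.076, interval -0.021 to 0.17). VPS37B, 1 of the alternative subunits that complete the complex, had 6 and 9 reads (5.26 and 10.3 normalized). Its log2 fold change of 0.85 had an interval of -0.69 to 2.74, so it was not resolved at this depth. VPS37A had 544 and 426 reads (0.028, interval -0.16 to 0.21) and VPS37C 712 and 571 (0.063, interval -0.099 to 0.22). They supplied nearly all VPS37 reads, and VPS37A took 43.1% of them in Ramos and 42.3% in Ramos640.

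ESCRT-II, which seeds ESCRT-III, also parted. SNF8 had 3572 reads in Ramos against 3640 in Ramos640 (3130 and 4154 normalized; log2 fold change 0.41, interval 0.34 to 0.48). VPS25, present in 2 copies in each complex, had 4444 and 4313 reads (3894 and 4922 normalized; 0.34, interval 0.28 to 0.40). VPS36, whose GLUE domain binds lipid and ubiquitin, had 1035 and 600 reads (-0.40, interval -0.55 to -0.26), opposite in sign to its partners.

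ESCRT-III is the filament that cuts the membrane, and none of its 11 genes compared was past 1.5-fold. All 11 had at least 100 reads, and of all genes at that depth 9.94% were higher and 12.6% lower. Their median was 0.046, which went below 0 under total-count scaling, and 5 of their intervals included 0. CHMP4B, the main filament subunit, had 7286 reads in Ramos against 5701 in Ramos640 (6385 and 6506 normalized; log2 fold change 0.027, interval -0.023 to 0.077). Its paralog CHMP4A, which binds ALIX as CHMP4B does, had 2257 and 1992 reads (0.20, interval 0.11 to 0.29), and its share of the CHMP4 reads was 23.7% in Ramos (interval 22.8 to 24.5) and 25.9% in Ramos640 (24.9 to 26.9). CHMP6, which starts the filament on ESCRT-II, had 587 and 529 reads (0.23, interval 0.059 to 0.40), and CHMP7, the subunit of the nuclear envelope, had 3579 and 2838 (0.046, interval -0.025 to 0.12).

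CHMP2A and CHMP2B, late subunits that recruit VPS4, differed most within the complex. CHMP2A had 3244 reads in Ramos against 3003 in Ramos640 (log2 fold change 0.27, interval 0.20 to 0.34). CHMP2B, in which mutations cause frontotemporal dementia, had 965 and 529 reads (846 and 604 normalized; -0.49, interval -0.64 to -0.33), the nearest to 1.5-fold among those within it on the lower side. CHMP2B took 22.9% of the pair's reads in Ramos (interval 21.7 to 24.2) and 15.0% in Ramos640 (13.8 to 16.2), intervals that do not overlap. CHMP3, another late subunit, had 572 and 472 reads (0.10, interval -0.075 to 0.28), although a row for the read-through transcript RNF103-CHMP3 held 92.7% and 93.2% as many reads and these rows cannot be told apart.

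The remaining ESCRT-III genes stayed close to 0. CHMP5, which binds the VPS4 cofactor VTA1, had 2052 reads in Ramos against 1725 in Ramos640 (log2 fold change 0.13, interval 0.037 to 0.22). IST1, which with the CHMP1 proteins recruits the microtubule-severing enzyme spastin, had 5030 and 3528 (-0.13, interval -0.19 to -0.068). ATXN1L overlaps IST1 on the same strand and its row held 35.5% and 35.3% as many reads, so the IST1 count is uncertain. CHMP1A had 2123 and 1565 (-0.059, interval -0.15 to 0.036) and CHMP1B 481 and 325 (-0.18, interval -0.39 to 0.022). CHMP1B lies within the gene GNAL on the same strand, whose row held 106% and 110% as many reads, so its count is uncertain.

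Of the ATPases that recycle the filament, VPS4A carried most reads, 3767 in Ramos and 3755 in Ramos640 (3301 and 4285 normalized; log2 fold change 0.38, interval 0.31 to 0.44). VPS4B had 365 and 240 reads (-0.22, interval -0.46 to 0.015), and its share of the pair's reads was 8.83% in Ramos (interval 7.99 to 9.74) and 6.01% in Ramos640 (5.29 to 6.79). COG8 and PDF overlap VPS4A on the other strand and held 26.8% and 13.2% as many reads in Ramos and 25.8% and 13.1% in Ramos640; whether counting used strand is not given in the sources used here.

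The calcium-dependent entry to ESCRT-III differed between its parts. PDCD6, the gene of the calcium sensor ALG-2, had 3919 reads in Ramos against 3848 in Ramos640 (log2 fold change 0.35, interval 0.29 to 0.42). PDCD6IP, the gene of ALIX, had 3804 and 2285 (-0.35, interval -0.43 to -0.28). ALIX had 49.3% of the reads of the pair in Ramos (interval 48.1 to 50.4) and 37.3% in Ramos640 (36.0 to 38.5), a pair also chosen after the values were seen.

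**Figure D3:**
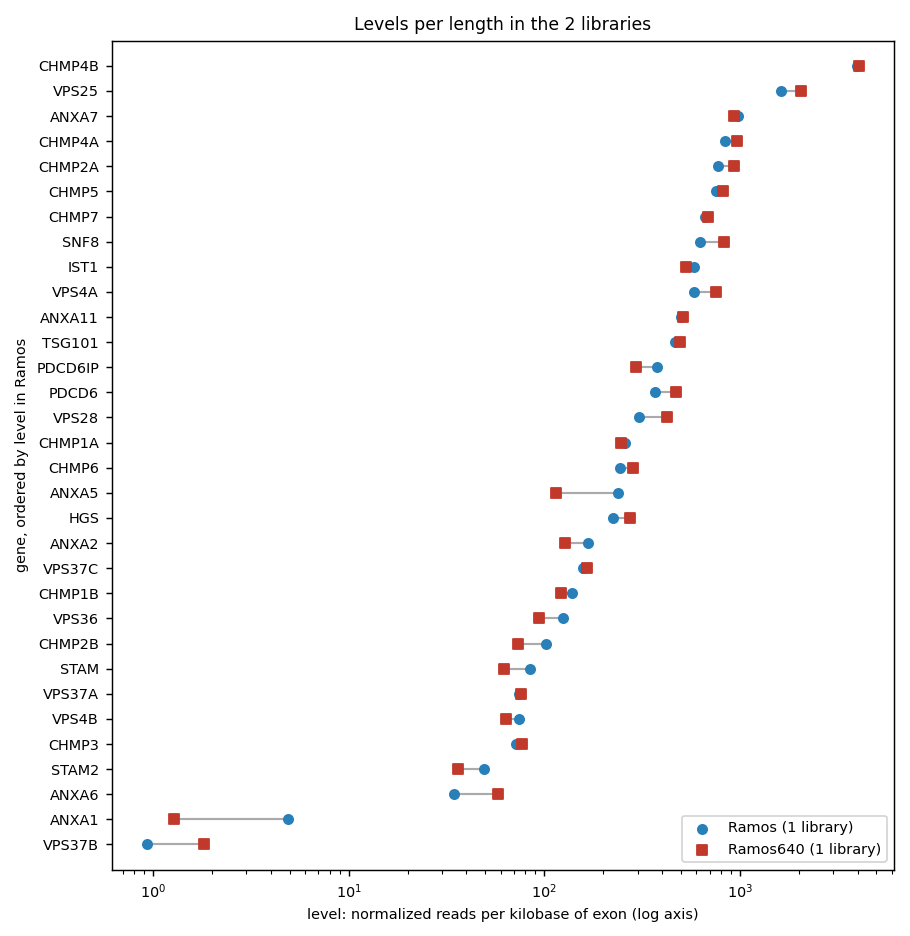
Level of each gene as normalized reads per kilobase of exon, on a log axis, in Ramos and Ramos640, with genes ordered by level. CHMP4B is at the top at 3985 and 4061, and VPS37B and ANXA1 are the lowest of the genes with reads.

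Per kilobase of exon, levels in Ramos ran from 0.933 normalized reads for VPS37B to 3985 for CHMP4B. CHMP4B (3985 in Ramos, 4061 in Ramos640) and VPS25 (1629 and 2059) were the highest in both libraries, followed by ANXA7 in Ramos (981, against 932 in Ramos640) and by CHMP4A in Ramos640 (971, against 844 in Ramos). The lowest in Ramos were VPS37B (0.933, against 1.82 in Ramos640), ANXA1 (4.92, against 1.28) and ANXA6 (34.4, against 57.8); in Ramos640 the lowest after ANXA1 and VPS37B was STAM2 (36.2, against 49.0 in Ramos). This order depended on the length used. Over canonical transcripts VPS25 (4524) passed CHMP4B (4061) in Ramos640, and in Ramos PDCD6 went from rank 14 to 4, ANXA2 from 20 to 7 and ANXA7 from 3 to 9. The exons of ANXA2 span 11.6 kilobases over all its transcripts but 1.55 in the canonical one.

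The direction of the values varied with base composition. The Spearman correlation between the GC content of the canonical transcript and the log2 fold change was 0.69 across the 32 genes (Pearson's r 0.59), beside 0.43 across the 10240 protein-coding genes that had 100 reads or more (0.29); the points are genes that share the same 2 libraries. Among the 16 genes of lower GC content the median log2 fold change was -0.29 with 12 below 0, and among the 16 of higher GC content it was 0.28 with 15 above 0. The running median of those genes along GC content was then subtracted from each value, which left medians of -0.0094 and 0.12.

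Removing this trend brought some pairs closer and moved others apart. CHMP2A (55.8% GC) went to 0.13 and CHMP2B (35.2% GC) to -0.10, VPS4A to 0.25 and VPS4B to 0.070, and HGS to 0.10 with STAM at -0.14 and STAM2 at -0.052. PDCD6IP went to -0.079 while PDCD6 kept 0.30. In ESCRT-II, VPS36 went to -0.11, VPS25 to 0.21 and SNF8 to 0.37, and in ESCRT-I VPS28 went to 0.28. In the other direction, VPS37A went to 0.37 and VPS37C to -0.13, CHMP1A to -0.26 and CHMP1B to 0.068, and CHMP5 to 0.43. The annexins past 1.5-fold remained past it, with ANXA1 at -1.52, ANXA5 at -0.93 and ANXA6 at 0.63, and ANXA2 was at -0.38. Whether the trend arose in the cells or in making the libraries cannot be told apart with 1 library per line.

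**Figure D4:**
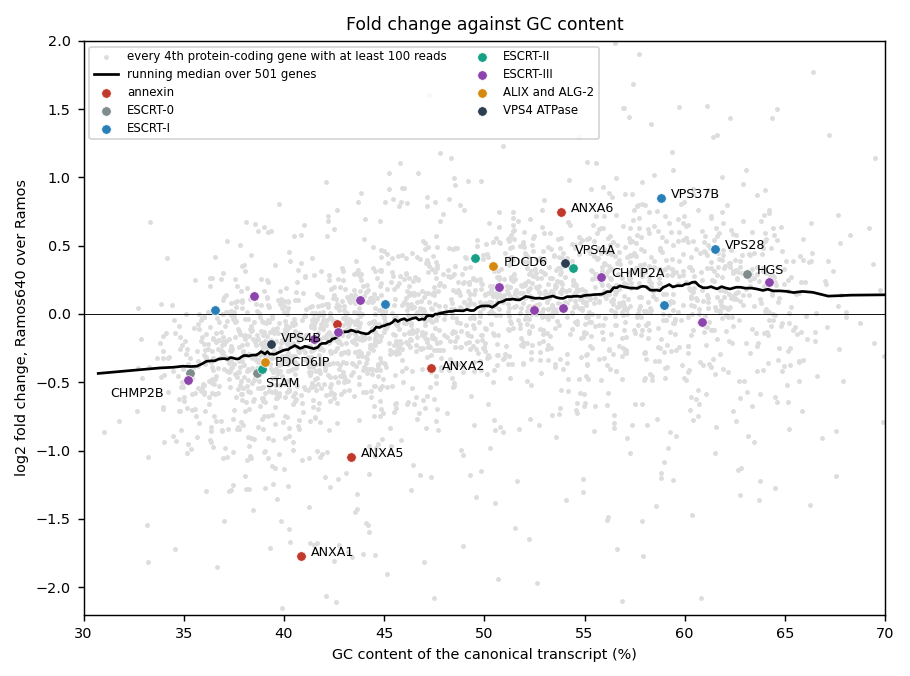
Log2 fold change, Ramos640 over Ramos, against the GC content of the canonical transcript in percent, with each annexin and ESCRT gene as a coloured point over every 4th protein-coding gene of 100 reads or more in grey, and the running median of all those genes as a line. CHMP2B, VPS4B and PDCD6IP lie near the line at the left and CHMP2A near it at the right, while ANXA1 (-1.77) and ANXA5 (-1.05) lie below it and ANXA6 (0.75) above it.

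Of 63 other genes of annexin partners, membrane repair and ESCRT function, 46 could be compared. Past 1.5-fold, 5 were higher and 9 lower, again beside 14.6% and 17.3% of all genes, and the median was -0.13. S100A10, the subunit that holds ANXA2 at the membrane, had 3065 reads in Ramos against 829 in Ramos640 (2686 and 946 normalized), a log2 fold change of -1.50 (interval -1.62 to -1.39), and -1.50 with the GC trend removed. It took 58.2% of the reads of S100A10 and ANXA2 together in Ramos (interval 56.8 to 59.5) and 39.2% in Ramos640 (37.1 to 41.3), a pair chosen after the values were seen. AHNAK, a giant scaffold bound by the same tetramer, had 90 and 30 reads (-1.18, interval -1.85 to -0.59). S100A4, another S100 protein of that list, was higher on few reads, 9 and 28 (1.89, interval 0.89 to 3.29), and is named after its values were seen. The fibroblast markers had a summed log2 fold change of -1.32, and the B-cell markers MS4A1 (-1.96) and VPREB3 (-1.52) were lower as well. Of the 9 B-cell markers, 6 were below 0 and 3 above it, CD79B (0.64), CD74 (0.63) and CD79A (0.57). The part of fibroblast RNA in these values was not tested.

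**Figure D5:**
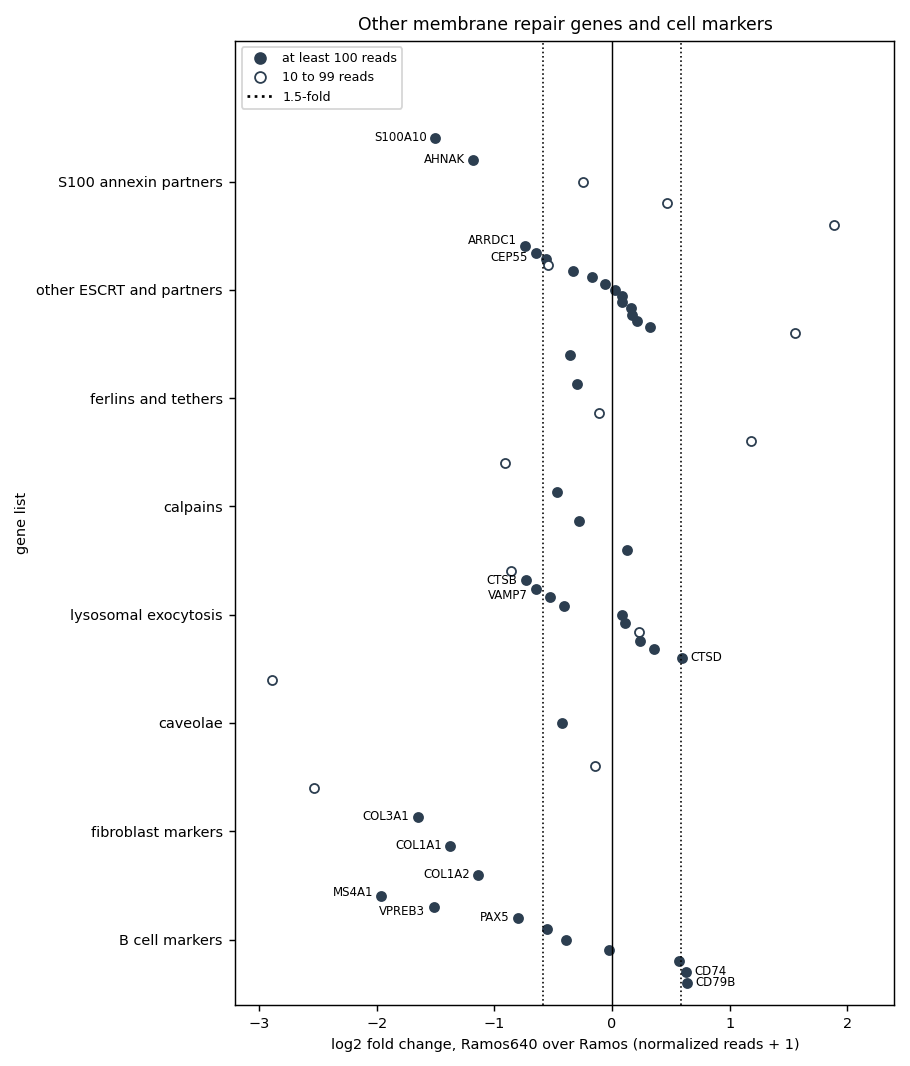
Log2 fold change, Ramos640 over Ramos, of the other membrane repair genes and of fibroblast and B-cell markers, one row band per list; filled points have at least 100 reads, open points 10 to 99, and dotted lines mark 1.5-fold. S100A10 and AHNAK lie to the left, as do the fibroblast collagens and the B-cell markers MS4A1 and VPREB3, while most ESCRT partners lie within the dotted lines. Of 9 B-cell markers, 3 are lower past 1.5-fold and 2 higher, beside 17.3% and 14.6% of all genes.

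Among 15 other ESCRT subunits and partners, ARRDC1, an arrestin-like protein that recruits TSG101 to bud vesicles from the plasma membrane, had 1202 reads in Ramos against 552 in Ramos640 (log2 fold change -0.74, interval -0.89 to -0.60). CEP55, which brings ALIX and TSG101 to the midbody in cell division, had 1829 and 897 (-0.65, interval -0.76 to -0.53), and at -0.40 it was within 1.5-fold with the GC trend removed. Of the genes of lysosomal exocytosis, which patches wounds with lysosomal membrane, VAMP7, the SNARE of that fusion, had 893 and 438 reads (-0.65), the protease CTSB 83 and 38 (-0.73) and the protease CTSD 396 and 460 (0.60). With the GC trend removed VAMP7 (-0.34) and CTSD (0.41) were within 1.5-fold, and CTSB was at -0.84. No gene with at least 100 reads was past 1.5-fold among the ferlins and tethers, calpains, caveola genes, other annexins or annexin pseudogenes, beside 9.94% higher and 12.6% lower of all genes at that depth. With the GC trend removed the calpain subunit CAPNS1, with 11026 and 6107 reads, went from -0.47 to -0.70, past 1.5-fold. Of 6 other annexins, 5 had no reads, and ANXA9 had 9 and 17.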

How the data were processed

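RNA-seq of 1 library of Ramos and 1 of Ramos640 was analysed. The deposited table holds raw read counts per gene, made by the authors from reads aligned to GRCh37; the counting program and its treatment of strand and of reads with several matches are not given in the sources used here. Each count was scaled with a size factor, the median of ratios over 20810 genes with reads in both libraries, and log2 fold changes taken with a pseudocount of 1 for the 18778 genes with at least 10 reads in both libraries together. The study's methods name DESeq with a fold criterion of 1.5 and a limit on the false discovery rate. With 1 library per line no spread can be estimated, so the fold was used without that limit. Exact (Clopper-Pearson) 95% counting intervals are given beside it. Reads are not independent molecules, and pooling of 3 passages hides their spread. Exon lengths and GC content came from the GENCODE annotation on GRCh37; 84.1% of the genes compared had a GC value. All 34 genes were named, with full values for those past 1.5-fold, the 3 nearest to it on each side and the 3 highest and lowest per kilobase; from other lists, genes past 1.5-fold with at least 100 reads. The genes and lists were chosen with earlier results of these data known. The labels give the rituximab dose in mg/mL and the study's methods in μg/mL, so no dose is printed. Alternatives were TMM factors (edgeR 4.0.16), total counts, other pseudocounts and read minimums, a 2-fold threshold, removal of the GC trend and other transcript lengths, the canonical length being added after the data were seen. Scripts ran in Python 3.11.15 with SciPy 1.17.1 and were tested on simulated data.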

Additional observations from a re-analysis of the deposited data

How the results depend on the processing

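No paired analysis was possible because there was 1 library per cell line. Scaling by TMM factors, total counts or without the GC trend moved the median of all genes by -0.0097, -0.080 and 0.027 on the log2 scale and left the same 4 genes past 1.5-fold. Under total counts 6 genes changed sign (ANXA11, CHMP4B, CHMP7, TSG101, VPS37A and VPS37C), so that 13 rather than 19 of 32 were above 0 and the median was -0.039. Without the GC trend 8 genes changed sign (ANXA7, ANXA11, CHMP1B, CHMP4B, CHMP7, VPS4B, VPS37C and IST1) and 22 of 32 moved by more than their counting error, against 12 under total counts. With a pseudocount of 10, 1 gene was higher, beside 11.5% of all genes. With a minimum of 100 reads, 1 gene was higher and 1 lower, the annexin median was -0.073, and 1 gene of the other lists was higher, beside 9.94% and 12.6% of all genes; with a minimum of 1 read 8 genes of the other lists were higher, beside 20.2%. At 2-fold no gene (0) was higher, beside 6.64%, and 3 of the other lists were lower, beside 8.75%. Depth limits ANXA1 and VPS37B most.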
